A study of Ovis aries with 36 samples.

Results

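The adductor (AD) was compared with the other 8 muscles sampled from the same lambs. The samples were chosen by their muscle label, which gave 4 AD samples, 1 from each of 4 animals, among 36 samples in all. The remaining 32 samples, 4 of each muscle, were from the supraspinatus (SS) of the shoulder, the longissimus lumborum (LL) and psoas major (PM) of the loin, and the gluteus medius (GM), gluteobiceps (GB), rectus femoris (RF), semitendinosus (ST) and semimembranosus (SM) of the hip and thigh. All 9 muscles came from unrelated Poll Dorset cross-bred lambs, slaughtered at 14 months of age with live weights between 67 and 72 kg, and no group received a treatment. Tissue was taken at the superficial middle of each muscle belly, and each sample was sequenced as a library of its own, so the animal is the replicate and every comparison can be made within animals.

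The adductor lies on the inner side of the thigh and draws the hind limb towards the midline. Muscles of this kind mix slow fibres, which carry slow isoforms of troponin, tropomyosin and myosin light chain and rely on oxidative metabolism, with fast fibres that contract quickly, relax quickly and use more glycogen. Besides fibre type, adult muscles keep some of the positional gene expression that they acquired in the embryo, such as that of *HOX* genes and of other transcription factors that pattern limb and trunk. In whole tissue, fewer cells of a type and less RNA per cell cannot be told apart.

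Total counts in AD ranged from 3699148 to 6427422 per sample, and from 4018634 to 6407360 in the other 32 samples. The 4 most counted loci without an Ensembl identifier held 68.8% to 72.2% of the counts in AD and 65.7% to 78.3% elsewhere. Thus 1150783 to 2002813 counts per AD sample described the other loci. Expression is given as CPM (counts relative to a library size normalized by TMM), which is not divided by gene length and is therefore compared only within a locus. A count of 3 was used as the floor of detection and was worth 0.436 to 0.787 CPM in AD, and this floor covers counting error only. The files pair no gene symbols with their Ensembl identifiers, so names come from the coordinates in the study's tables, and most loci are given by their position in Oar_v3.1. None of the 17 skeletal muscle identity genes and none of the adipocyte, endothelial, immune, blood, nerve or matrix markers listed for this work could be matched to a locus, and thus the part of other cell types in any difference was not tested.

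AD was among the least distinct of the 9 muscles. Against the mean of the other 8, 7 of 12461 tested loci were differentially expressed (DEG, with an FDR ≤ 0.01 and a log2FC beyond 1 in either direction), which is 0.0562% of the loci, with 6 higher (0.0482%) and 1 lower (0.00803%) in AD. Which loci were called depended on the tool, since DESeq2 called 10 DEG, 0 higher and 10 lower, of which 1 was among the 7. The log2FC of all 7 kept their sign in DESeq2, which called 28 loci higher and 49 lower at an FDR of 0.05. Of the 6 higher DEG, DESeq2 gave 5, *SIM2* included, no adjusted p, and the sixth, an unannotated locus on chromosome 6, had an adjusted p of 0.147. The same contrast gave 188 DEG for SS, 179 for ST, 68 for LL, 60 for SM, 44 for PM, 20 for GM, 20 for RF and 7 for GB. These counts share all samples and were not tested against each other. With a threshold of FDR 0.05 and no limit on the fold change, 38 loci (0.305%) differed in AD, 18 higher (0.144%) and 20 lower (0.161%). FDR values throughout are Benjamini-Hochberg adjusted p from the quasi-likelihood test of edgeR, fitted with muscle and animal. An unadjusted p under 0.05 was found at 1543 loci (12.4%). Of the 38 loci, 37 had the same sign of the difference in 4 of 4 animals. They were selected by the test on these same samples, which favours equal signs, so this count is not independent evidence. Without animal in the model, 3 loci passed each threshold, namely *SIM2*, its unannotated neighbour on chromosome 1 and ENSOARG00000020509.

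**Figure D1:**
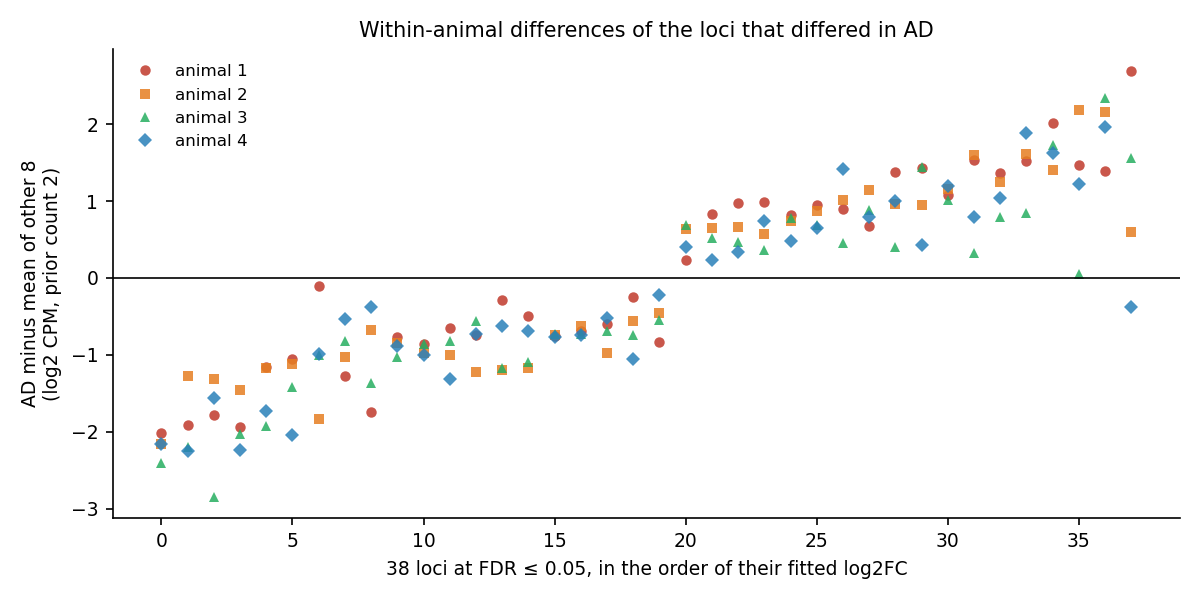
Difference between AD and the mean of the other 8 muscles in log2 CPM (y axis, prior count 2) for the 38 loci at an FDR of at most 0.05 (x axis, in the order of their fitted log2FC), with 1 point per animal. The points of 37 loci lie on 1 side of the zero line, and those of the last locus, on chromosome 6, spread over both sides.

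The clearest excess in AD was that of *SIM2*, which encodes a transcription factor with a basic helix-loop-helix and a PAS domain, known from the developing midline of the brain and from embryonic limb muscle. It lies at chr1:267018135-267070595. *SIM2* reached 6.30, 2.32, 4.37 and 3.05 CPM in AD of animals 1 to 4. In the other 32 samples the lowest, median and highest values were 0, 0.850 and 4.43 CPM. AD was the highest of the 9 muscles in 3 of 4 animals, with SM above it in animal 4, and the AD samples overlapped with those of SM, GB and GM. Relative to the mean of the other 8 muscles the log2FC was 2.22 (FDR 2.41e-07), and the mean within-animal difference was 1.70 ± 0.13 in log2 CPM (SE, n = 4), a scale that compresses low values.

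An unannotated locus at chr1:266994223-267001200, 16935 bases from *SIM2*, followed the same order of muscles at both ends, with AD and SM highest and ST lowest. It had 5.51, 6.24, 8.93 and 5.47 CPM in AD, and 0, 1.29 and 5.75 CPM as the lowest, median and highest of the other 32 samples. Here AD was the highest muscle in 4 of 4 animals, and of the other 32 samples only GB of animal 2 was above the lowest AD sample. The log2FC was 2.64 (FDR 2.41e-07) and the within-animal difference was 1.96 ± 0.21 in log2 CPM (SE, n = 4). A further annotated locus 3845 bases beyond *SIM2* did not pass the test (log2FC 0.12, FDR 0.813).

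**Figure D2:**
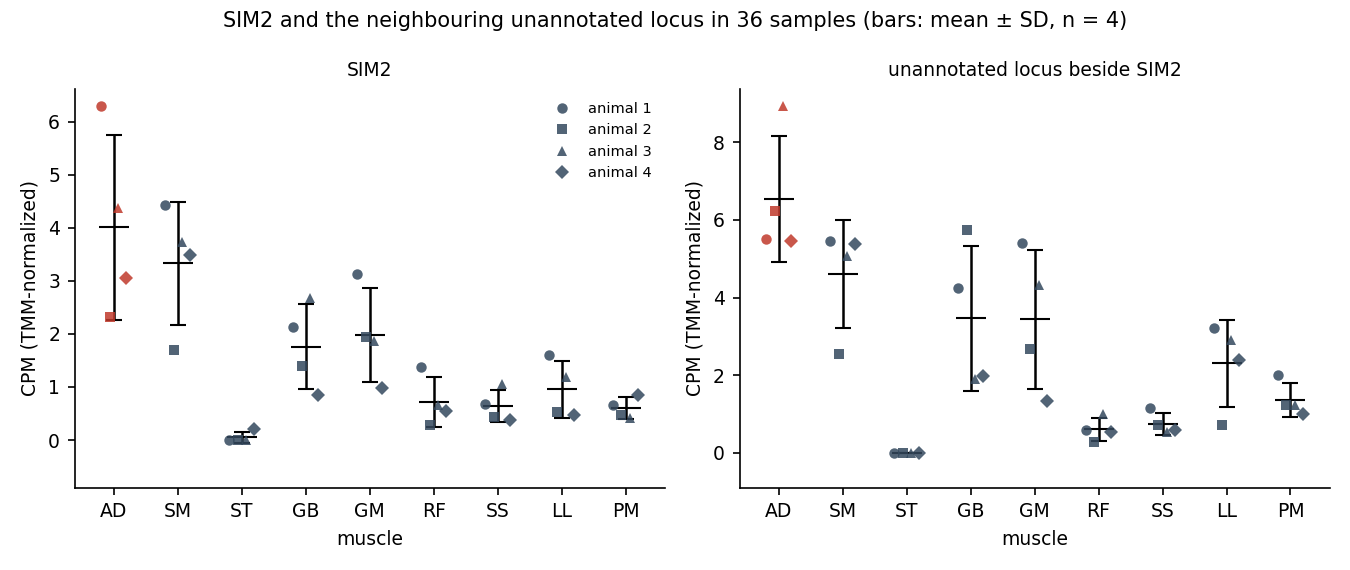
CPM (y axis) of *SIM2* (left) and of the unannotated locus beside it (right) in each muscle (x axis), with 1 point per animal and bars for the mean ± SD (n = 4). AD averages 4.01 CPM for *SIM2* and 6.54 CPM for its neighbour, SM follows with 3.33 and 4.61 CPM, and ST is at or near 0 for both.

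The distance of AD from each muscle at these loci was uneven. *SIM2* passed both thresholds against RF (log2FC 2.47, FDR 5.99e-05), SS (2.54, FDR 3.24e-05), LL (2.05, FDR 0.0019) and PM (2.55, FDR 0.000171). In ST 1 count was found over the 4 samples against 83 in AD, a pooled fold of 70.7 with a 95% exact counting interval of 12.3 to 2820. Such intervals, here and below, cover counting error only and leave out the spread between animals. The difference from GB missed the FDR of 0.01 (log2FC 1.17, FDR 0.043), and that from GM (1.03, FDR 0.335) and SM (0.22, FDR 0.729) passed neither threshold. Its neighbour was called against ST, RF, SS and PM. With 147 counts in AD and 0 in ST, it was at least 41.7-fold higher in AD than the limit that a count of 0 allows (3 counts over the 4 ST samples). Because the ST values enter the mean of the other muscles, both log2FC against that mean depend on them, and without ST and SS in the reference they were 1.58 for *SIM2* (FDR 0.000307) and 1.62 for its neighbour (FDR 0.000728). Both loci remained DEG without any 1 AD sample and without any 1 animal. They lost the call when the other 8 muscles were fitted as 1 group, so that the differences among those muscles entered the residual spread (FDR 0.491 and 0.518).

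Another pair of adjacent loci was higher in AD on chromosome 13. ENSOARG00000015249, at chr13:55853463-55893440, had 2.10, 2.18, 0.546 and 4.98 CPM in AD of animals 1 to 4, and an unannotated locus 520 bases from it, at chr13:55851016-55852943, had 1.84, 3.19, 0.182 and 2.25 CPM. At both loci AD of animal 3 was the lowest of the 4 AD samples, with 3 counts and 1 count. The log2FC were 2.19 (FDR 0.00413) and 2.41 (FDR 0.00793). AD was not alone at this site. PM had nearly the same mean at the annotated locus (2.33 ± 1.24 against 2.45 ± 1.85 CPM in AD, SD, n = 4), with a log2FC of -0.03 between them (FDR 0.994), and SM had nearly the same mean as AD at the unannotated one (1.84 ± 1.03 against 1.87 ± 1.26 CPM).

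The muscles that set AD apart at this site were those with almost no counts. Over 4 samples each, ENSOARG00000015249 held 2 counts in SS and 3 in RF against 57 in AD, which gives pooled folds of 28.1 (95% exact counting interval 7.43 to 238) and 19.9 (6.47 to 99.3). The spread between animals is not part of these intervals. The neighbour held 44 counts in AD and 0 in SS, at least 14.5-fold above the limit of 3 counts. The call of ENSOARG00000015249 rested on single samples, since the FDR was 0.0615 without AD of animal 2 and 0.0654 without AD of animal 4, and the neighbour had an FDR of 0.229 without AD of animal 2. *PPP1R3D*, which encodes a subunit that directs protein phosphatase 1 to glycogen, lies 29313 bases from ENSOARG00000015249. It did not pass the test in the same contrast (log2FC 0.45, FDR 0.222), with 7.16 ± 1.09 CPM in AD (SD, n = 4).

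The remaining 2 DEG that were higher in AD were unannotated loci in which AD did not lead. At chr3:138835874-138837855 the AD samples had 1.57, 3.34, 3.64 and 1.29 CPM, below LL (3.86 ± 2.68) and GM (2.86 ± 2.31) and above RF (0.203 ± 0.316 CPM, SD, n = 4). Its log2FC was 1.46 (FDR 0.00788), and the FDR was 0.125 without AD of animal 2. At chr6:43210256-43215274 the AD samples had 26.2, 0.436, 1.09 and 0 CPM, and the high value belonged to animal 1, in which LL had 59.7 and PM 18.3 CPM. The log2FC of 2.86 (FDR 0.000241) reached an FDR of 0.26 without AD of animal 1, and the sign of the difference was not the same in the 4 animals. The locus could not be fitted without animal 1, since it then fell below the filter on low counts.

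The only DEG lower in AD was ENSOARG00000020509, at chr1:198618107-198631249. It had 8.92, 7.40, 7.10 and 10.3 CPM in AD, whereas the lowest, median and highest of the other 32 samples were 8.22, 37.2 and 301 CPM. AD was the lowest muscle in animals 2, 3 and 4, LL of animal 1 fell just below AD, and the AD samples overlapped only with the lowest LL and PM samples. The log2FC was -2.35 (FDR 0.00256), with a within-animal difference of -2.19 ± 0.08 in log2 CPM (SE, n = 4). Against single muscles it was called for ST (log2FC -4.13, FDR 3.89e-07), SM (-3.13, FDR 0.000427), RF (-2.95, FDR 0.000214), GB (-2.81, FDR 0.00184) and SS (-2.00, FDR 0.00865). The differences from GM (-1.66, FDR 0.335), LL (-1.31, FDR 0.267) and PM (-0.82, FDR 0.693) did not pass. Without 1 AD sample the FDR against the mean of the other muscles was between 0.0228 and 0.0364, above the limit of 0.01 whichever sample was left out.

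A second Ensembl locus, ENSOARG00000014674 at chr22:20409008-20424462, was the lowest of the 9 muscles in AD of every animal. Its CPM in AD were 35.7, 15.8, 18.9 and 11.3, against 19.1, 53.0 and 1198 as the lowest, median and highest of the other samples. Animal 1 was high in AD and in most other muscles, and the ranges overlapped between animals although not within them. The log2FC was -2.05 (FDR 0.0153), and its FDR was between 0.0615 and 0.0894 when any 1 AD sample was left out. A locus at chr11:49939321-49957116 had the same order of its highest and lowest muscles, with 13 ± 4.00 CPM in AD and 274 ± 254 CPM in ST (SD, n = 4, log2FC against the mean of the other 8 of -2.08, FDR 0.0356). Across the 36 samples, the log2 CPM of these 3 loci had Pearson's r of 0.842 (chromosomes 1 and 22), 0.848 (1 and 11) and 0.952 (22 and 11). These are a description, as the samples share animals, muscles and libraries.

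**Figure D3:**
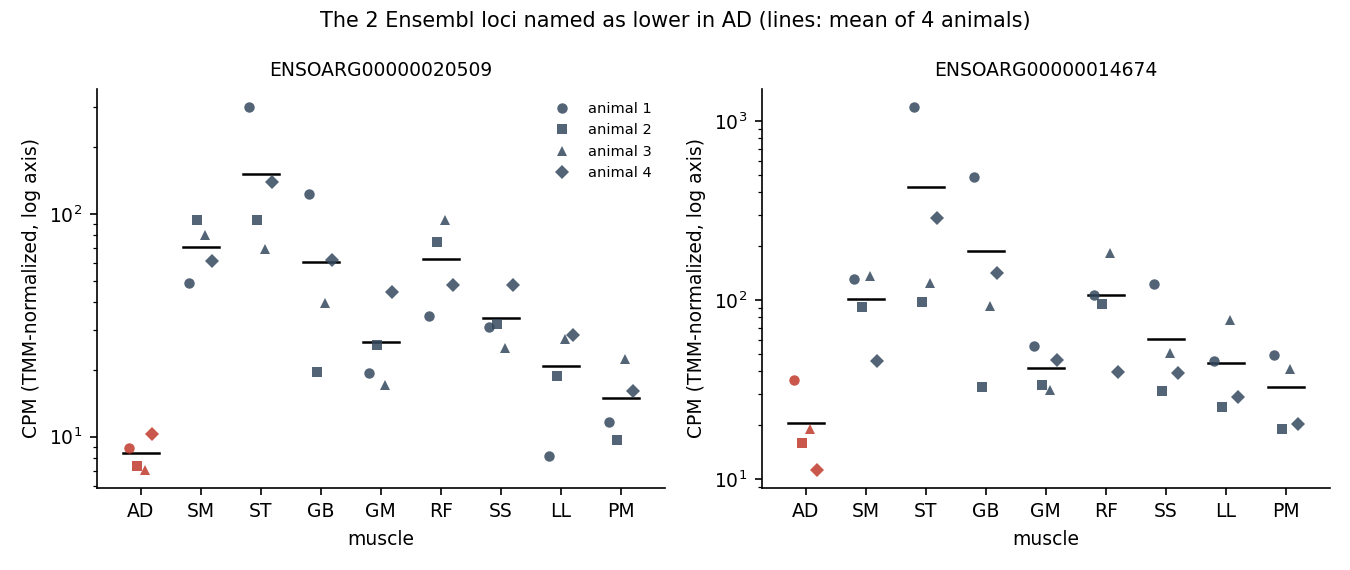
CPM (y axis, logarithmic) of ENSOARG00000020509 (left) and ENSOARG00000014674 (right) in each muscle (x axis), with 1 point per animal and a line at the mean of 4 animals. AD has the lowest mean at both loci (8.43 and 20.4 CPM), next to PM (14.9 and 32.5 CPM), and ST the highest (151 and 427 CPM).

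Among the 18 loci higher in AD at an FDR of 0.05, AD had the highest mean of the 9 muscles at 13, and 15 of the 18 were DEG against at least 1 single muscle. Among the 20 lower loci AD had the lowest mean at 15, PM had it at the other 5, and all 20 were DEG against at least 1 muscle. Over all 12461 tested loci, 311 were DEG against at least 1 muscle. The 38 loci were selected for their difference in AD in the same fit, which favours these counts, so they are a description. The muscle at the opposite end was most often ST, which was lowest at 7 of the 18 and highest at 10 of the 20. SS was lowest at 5 of the 18, and SM was highest at 5 of the 20. GM, LL and PM stood at the opposite end of none of the 38 loci. When ST and SS were left out of the reference mean, 6 of the 38 loci passed an FDR of 0.05 and 2 were DEG, *SIM2* and its neighbour. Of the 30 loci chosen by the rule for named loci, 7 kept an FDR of 0.05 without AD of animal 1, 3 without AD of animal 2, 8 without AD of animal 3 and 12 without AD of animal 4.

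Other loci stood out by their order within animals. At 9 loci (0.0722% of those tested) AD was above all 8 other muscles in 4 of 4 animals, and at 10 loci (0.0803%) it was below all of them. Scaled by total counts instead of TMM, these numbers were 5 and 4. ENSOARG00000018093, at chr11:50211686-50212510, belonged to the first kind, with 161, 103, 101 and 70.2 CPM in AD and 39.9, 59.8 and 132 CPM as the lowest, median and highest elsewhere. AD led in each animal, but the groups overlapped because the animals differed. Its log2FC was 0.69 (FDR 0.00745).

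A locus at chr5:4719992-4738574 also led in every animal, with 26.8, 26.3, 23.0 and 25.9 CPM in AD against a highest value of 24.3 CPM among the other 32 samples. It had a log2FC of 0.61 (FDR 0.0195). The third, at chr11:23207618-23234661, had 20.3 ± 1.33 CPM in AD and 16.5 ± 2.36 CPM in PM, the next highest muscle (SD, n = 4, log2FC against the mean of the other 8 of 0.51, FDR 0.0274). Neither of these last 2 was a DEG against any single muscle.

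At 2 loci (0.0161%) every AD sample was below every one of the other 32 samples, and at 0 loci was every AD sample above. One was an unannotated locus at chr5:67618066-68029082 with 2.10, 2.32, 1.82 and 1.77 CPM in AD, where the lowest of the others was 2.36 CPM. The groups did not overlap, but by a margin of less than 1 count, and the log2FC was -1.01 (FDR 0.0195). The other, on chromosome 21, had between 0.161 and 0.525 CPM in AD, near the floor of 3 counts, and did not pass the test against the mean of the other 8 (FDR 0.0936).

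Some loci that differed in AD were abundant. At chr9:89664737-89675620, AD had 393, 287, 356 and 359 CPM and the other samples from 50.5 to 506 CPM. AD lay close to LL (383 ± 96.1) and PM (351 ± 88.3) and far above ST (92.6 ± 21.4) and RF (73.9 ± 18.5 CPM, SD, n = 4), with a log2FC of 0.66 against the mean of the other 8 (FDR 0.0287). In the other direction, a locus at chr2:119229086-119270385 had 195 ± 78.0 CPM in AD, below GB (656 ± 290) and SS (600 ± 164) and above PM (143 ± 32.9 CPM, log2FC -0.97, FDR 0.0429). At chr11:35993775-36011382, AD (58.6 ± 22.5) and PM (57.6 ± 17) were low side by side, compared with 299 ± 53.3 CPM in SS (SD, n = 4, log2FC against the mean of the other 8 of -1.47, FDR 0.0393). A locus at chr5:60404903-60427609 had 115 CPM in AD of animal 1 and 73.9 to 80.7 CPM in the other 3, but its within-animal differences were the most even of the named loci (log2FC -0.77, within-animal SE 0.008, n = 4, FDR 0.0282).

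One of 2 loci that share the coordinates of *SLC16A3*, the lactate exporter of glycolytic fibres, was higher in AD. This locus had 23.4, 14.7, 17.7 and 13 CPM in AD, with LL next (14.8 ± 4.08) and SS last (4.16 ± 0.744 CPM, SD, n = 4), and a log2FC of 0.79 (FDR 0.0195). Every AD sample lay above the SS samples, and AD of animal 1 was above all 32 other samples. The second locus at the same coordinates did not pass the test (log2FC 0.22, FDR 0.481). Which of the 2 the name belongs to is not settled by the coordinates.

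Of the 597 symbols in the gene lists, 15 could be matched to a tested locus, and *SIM2* was the only 1 of the 15 that passed an FDR of 0.05 against the mean of the other 8, beside 0.305% of all tested loci. The 7 matched genes of slow contraction (of 14 listed) had a median log2FC of 0.22 and the 2 of slow calcium handling (of 5) a median of 0.13, beside -0.00192 over all tested loci. None of these 9 passed. The names of all 15 came from the study's tables of ST or SM against SS, drawn from these same samples. Their share and medians are therefore not directly comparable with those over all loci. The lists of fast contraction, fatty acid use, respiration, myogenic regulation, matrix, neuromuscular junction, stress, clock, proteolysis and ribosomal proteins had no matched member, and AD was not analysed here for them.

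For the slow troponins, AD nevertheless held an intermediate place, between ST and the slow muscles. *TNNT1*, *TNNC1* and *TNNI1* encode the slow isoforms of the 3 troponin subunits, which make contraction respond to calcium. *TNNT1* had 93.1, 113, 153 and 141 CPM in AD. The mean of 125 ± 26.9 CPM stood below PM (255 ± 20.8) and SS (224 ± 54.5) and above LL (73.7 ± 37.6) and ST (23.1 ± 6.93 CPM, SD, n = 4). *TNNC1* and *TNNI1* had the same order of muscles at the top and bottom, with AD below PM, SS and GB for all 3 troponins.

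Against ST, all 3 troponins rose in AD, with log2FC of 2.43 for *TNNT1* (FDR 3.19e-06), 2.35 for *TNNC1* (FDR 5.18e-06) and 2.38 for *TNNI1* (FDR 9.83e-05). *MYL3*, a slow myosin light chain, had the largest difference of the slow-fibre genes (log2FC 4.54, FDR 3.77e-10), with 67.1 ± 11.9 CPM in AD and 2.84 ± 2.00 CPM in ST. *MYOZ2*, which anchors proteins at the Z disc of slow fibres, followed with 3.08 (FDR 5.58e-08) and was also higher in AD than in RF (1.91, FDR 6.75e-05). *TPM3*, slow tropomyosin (2.33, FDR 3.21e-07), *ATP2A2*, the slow calcium pump of the sarcoplasmic reticulum (1.75, FDR 1.83e-05), and *CASQ2*, a calcium store protein (1.87, FDR 0.000554), were DEG as well. In all, 8 of the 9 slow genes were DEG higher in AD than in ST, beside 0.706% of all tested loci. *MYOM3*, a protein of the M band, was the exception (1.08, FDR 0.121). The study drew its table on ST and SS from these samples, so the list is not independent evidence of this difference.

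Relative to SS, 3 of the 9 slow genes were DEG lower in AD, beside 0.345% of all tested loci. All 9 were named from the study's table on ST and SS, so this share is not independent evidence either. They were *MYOM3* (log2FC -1.89, FDR 0.000581), *MYOZ2* (-1.22, FDR 0.00182) and *ATP2A2* (-1.10, FDR 0.00804). The troponins missed the thresholds against SS, with log2FC of -0.84 to -1.04. *MYL3* had a difference of the opposite sign, with a mean of 57.3 ± 29.7 CPM in SS (SD, n = 4), and did not pass (log2FC 0.29, FDR 0.718). Compared with PM, *TPM3* was the only one of the 9 that was called, with 74.8 ± 23.0 CPM in AD and 217 ± 46.9 CPM in PM (SD, n = 4, log2FC -1.56, FDR 0.000929), beside 0.0241% of all tested loci. Against SM, GM and LL none of the 9 was a DEG, and the median log2FC over the 9 genes was 0.30, 0.17 and 0.76.

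**Figure D4:**
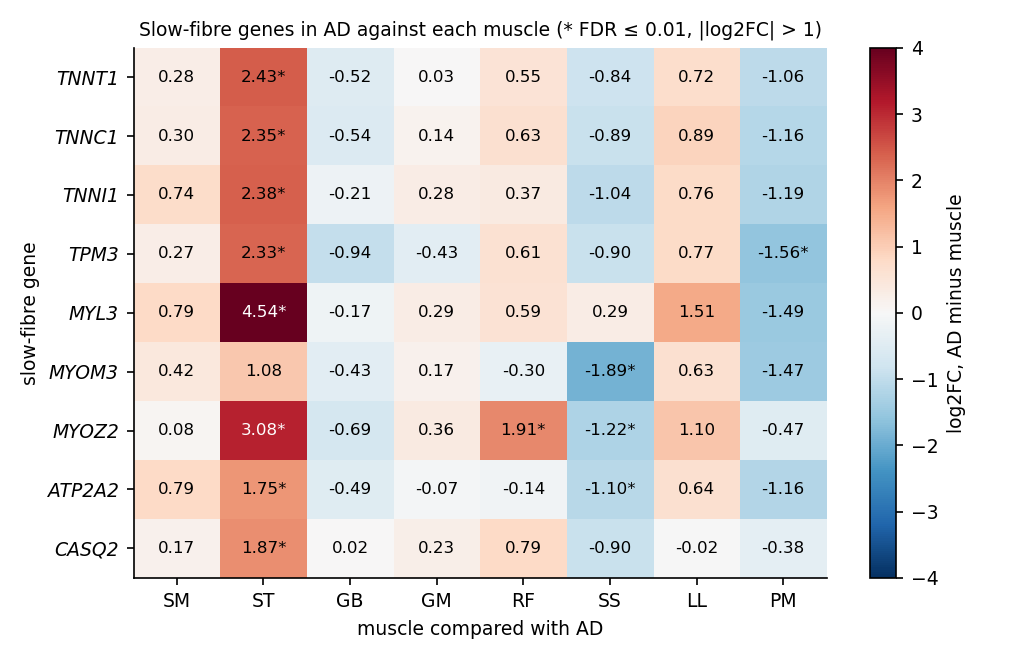
Log2FC of 9 slow-fibre genes (rows) between AD and each other muscle (columns), where positive values (red) mean higher in AD and an asterisk marks a DEG. The ST column holds 8 asterisks and runs from 1.08 to 4.54, while the SS and PM columns are mostly negative.

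*PVALB* encodes parvalbumin, the calcium buffer of fast fibres that relax quickly, and it had 0 counts in all 4 AD samples. The other muscles differed widely, with 167 counts in RF, 107 in ST and 107 in SS over 4 samples each. Against the limit of 3 counts over the 4 AD samples, the pooled CPM was at least 53.2-fold higher in RF and 41.9-fold in ST. In SS, animal 1 alone held 76 of the 107 counts, and the other 3 samples held 15, 7 and 9. *PVALB* was a DEG against these 3 muscles. GB held 16 counts, GM 11, and SM, LL and PM 2 or 3 each, and the contrast with the mean of the other 8 did not pass (FDR 0.08).

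At the matched *HOX* genes, which record the position of a tissue along the body and limbs, AD lay above SS, and at *HOXD8* also above RF. *HOXC10*, a posterior gene of the *HOXC* cluster, had 3.41, 3.34, 3.28 and 2.09 CPM in AD and 0 counts in all 4 samples of SS, the only muscle of the forelimb. AD was therefore at least 22-fold above the limit of 3 counts in SS. The other 7 muscles held 55 to 74 counts over 4 samples each and AD 67, so that AD was in their range. *HOXD8* was higher in AD (8.19 ± 1.87 CPM) than in RF (1.42 ± 1.07, log2FC 2.54, FDR 6.36e-06) and in SS (0.603 ± 0.627 CPM, SD, n = 4, log2FC 3.78, FDR 2.78e-08). *EYA1*, a transcriptional coactivator of muscle precursors, was lower in AD than in RF (log2FC -1.70, FDR 0.00587) and SS (-1.73, FDR 0.00191), and AD of animal 1 had 0 counts.

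The other genes named by the study separated AD mostly from SS or ST. Their names came from its tables of ST or SM against SS, drawn from these same samples. This pattern was thus favoured by how the genes were chosen and is not independent evidence. *CHI3L1*, a secreted chitinase-like protein, had 60.7 ± 13.7 CPM in AD against 4.72 ± 3.60 CPM in SS (SD, n = 4, log2FC 3.81, FDR 1.1e-08) and was also higher than in RF (1.77, FDR 0.00125). Its locus spanned 2 Ensembl genes, so these counts may not be of *CHI3L1* alone. *SMYD2*, a lysine methyltransferase, *PPP1R3D* and *RIMS2*, a protein of vesicle release, were higher in AD than in SS, with log2FC of 1.12 (FDR 6.54e-05), 1.64 (FDR 8.89e-05) and 2.93 (FDR 8.89e-05). *FREM2*, a matrix protein of basement membranes, was higher in AD than in ST (log2FC 2.21, FDR 6.81e-05). *METTL21C*, another lysine methyltransferase, had 17.8 CPM in AD of animal 1 and 1.77 to 3.1 CPM in the other 3. SS had 58.3 ± 35.8 CPM (SD, n = 4, log2FC -3.81, FDR 1.96e-05), but only 15.6 CPM in animal 1, where AD was the higher of the pair.

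By number of DEG in pairs, AD differed most from ST, with 195 (1.56% of the tested loci, 88 higher and 107 lower in AD). SS was next with 102 (0.819%, 59 and 43). SM followed with 52 (0.417%, 13 and 39), RF with 29 (0.233%, 17 and 12) and GB with 16 (0.128%, 1 and 15). PM had 5 DEG (0.0401%) and LL 3 (0.0241%). By unadjusted p under 0.05 the order differed, with SM at 2324 loci (18.7%), GB at 2202 (17.7%), ST at 2176 (17.5%) and SS at 1917 (15.4%). These 8 comparisons share the AD samples. Several of the counts depended on single samples, that for SM falling to 0 without animal 2 or 3 or without AD of animal 2, and that for GB to 0 without animal 3 or 4 or without AD of animal 2, 3 or 4. The number for SS was 41 to 118 when 1 animal was left out. In all, 311 loci were called against at least 1 muscle and 6 against 4 or more.

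**Figure D5:**
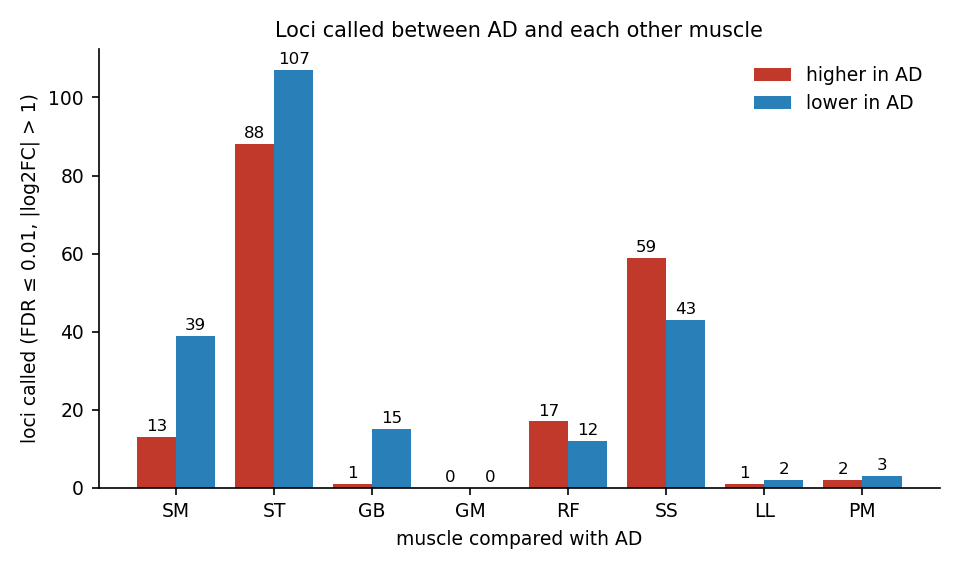
Number of DEG (y axis, FDR ≤ 0.01, log2FC beyond 1) between AD and each other muscle (x axis), higher in AD in red and lower in AD in blue. ST (88 and 107) and SS (59 and 43) have the most, and GM has 0 of each.

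By DEG in the quasi-likelihood test with the filter, GM was the muscle least separated from AD. No locus passed the DEG thresholds between AD and GM (0%) in edgeR's quasi-likelihood test, although 1231 loci (9.88%) had an unadjusted p under 0.05. DESeq2 called 0, edgeR's likelihood ratio test called 1, and the quasi-likelihood test without a filter on low counts called 78. In the filtered quasi-likelihood fit no locus reached an FDR of 0.05, which does not show that the muscles are alike. Distances were also taken over the 500 loci with the largest differences in each pair of samples from the same animal. AD and GM were on average 1.83 ± 0.19 apart in log2 units (SD, n = 4). PM (1.74 ± 0.21) and LL (1.8 ± 0.32) were nearer to AD, and ST was farthest (2.34 ± 0.46). By unadjusted p under 0.05, PM also differed from AD at fewer loci than GM did, 958 (7.69%).

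From LL, AD was separated by *SIM2* and by 2 loci that were lower in AD. DESeq2 also called 3 loci, 2 higher and 1 lower, and shared 0 of them. At chr2:248314984-248351464, AD had 0.860 ± 0.371 CPM and LL 15.1 ± 7.53 CPM (SD, n = 4, log2FC -4.02, FDR 3.89e-07). A locus at chr8:36569062-36646572 held 3 counts in the 4 AD samples, 105 in LL and 173 in PM. The pooled CPM was thus 33.6-fold higher in LL (95% exact counting interval 11.2 to 165) and 56.8-fold higher in PM (19.1 to 278). It was a DEG in both comparisons, and the other 6 muscles had 0 counts except for 3 in SS. AD and PM differed further at *SIM2* and its neighbour, at *TPM3* and at chr8:19396081-19553431, where AD had 53.7 ± 7.99 CPM and PM 116 ± 33.1 CPM (SD, n = 4, log2FC -1.11, FDR 0.003).

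SM, which lies next to the adductor in the thigh, was not separated from AD at *SIM2* but differed at the 52 DEG given above, 39 of them lower in AD. The DEG with the smallest p was ENSOARG00000020509, described above, with 71.2 ± 20.1 CPM in SM. A locus at chr3:199861093-199865551 had 26.7 ± 3.77 CPM in AD and 70.8 ± 18.7 CPM in SM (log2FC -1.40, FDR 0.000427). Loci at chr20:47732530-47873851 (log2FC -1.60, FDR 0.000703), chr13:31334882-31447397 (-1.48, FDR 0.000858) and chr6:3777526-3840343 (-1.11, FDR 0.00102) were lower in AD as well, with means between 3.97 and 7.84 CPM in AD and between 12 and 16.8 CPM in SM. All 5 of the DEG with the smallest p in this comparison were lower in AD.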

How the data were processed

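RNA was sequenced with 100-base paired-end reads in 36 samples, 9 muscles of 4 lambs. The authors aligned the reads to Oar_v3.1 with TopHat2 (2.0.13), merged Cufflinks (2.2.1) assemblies with the reference annotation, counted reads per locus with HTSeq and deposited these raw whole-number counts. The strand setting of the counting is not given in the sources used here. Of 31136 loci, 24763 carry an Ensembl identifier. Each locus was used once, although the files repeat loci that hold several Ensembl genes.

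Tools were edgeR 4.0.16, DESeq2 1.42.0 and limma 3.58.1 under R 4.3.3. Loci were filtered with filterByExpr by muscle, leaving 12461, of which 3168 (25.4%) had no Ensembl identifier. TMM normalization was followed by edgeR's quasi-likelihood test on all 36 samples with muscle and animal as factors (common biological coefficient of variation 0.195), and p-values were adjusted by the Benjamini-Hochberg procedure over all tested loci. AD was contrasted with the mean of the other 8 muscle coefficients and with each muscle. SEs are over the 4 animals, from log2 CPM with 2 as the prior count. The number in each sample title was taken as the animal, which pairs the muscles. The study sequenced in 4 lanes, and the lane of each sample is not given in the sources used here. Lane effects could therefore not be told apart from those of animal or muscle. In 32 same-animal pairs that included an AD sample, deviations from muscle means had a mean Pearson's r of 0.247 (lowest 0.0636). In 96 pairs from different animals and muscles that included an AD sample, the mean was -0.0809. Because each muscle was centred on its own mean, the second value follows largely from the first and is not separate evidence. AD libraries of different animals differed beyond sampling noise (5.12 to 12.7 as the chi-square per degree of freedom) and were kept as 4 replicates.

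Named loci are up to 15 higher and 15 lower in AD by p, as DEG with the same sign in 4 of 4 animals, filled up with loci at an FDR of 0.05, up to 5 DEG each against GM, LL, PM and SM, and the members of the gene lists. Of these, the 2 highest-ranked Ensembl loci not tied to a symbol or to a shared position were given by identifier in each direction, and others by position, a choice made after their values were seen, as was that of the loci given by order or abundance. Symbols came from coordinates in the study's tables (within 1 kb), and where several loci share the coordinates the name was given only to a locus that alone had an Ensembl identifier. No identifier matched the reference gene table. Some results that the rule covers are left out of the text. The members and lists were chosen with earlier results of these data known.

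The procedure was tested on simulated data with 200 of 11828 loci changed in AD against the mean of the other 8. The quasi-likelihood test called 100 of 100 loci changed by 1.5 and 100 of 100 changed by 3 on the log2 scale, with 0 wrong calls. The changed loci were drawn from the better counted ones, and all loci had the same dispersion. The other 8 muscles were simulated without differences among them. The result therefore does not carry over to loci with few counts, such as *SIM2*, or to a reference of unlike muscles. Alternatives were another test, DESeq2, RLE size factors, library sizes without the 4 most counted unannotated loci, and no filter. Further ones were a minimum of 10 counts in every sample, no animal term and 2 groups. The last were a reference without ST and SS, and each animal or AD sample left out.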

Additional observations from a re-analysis of the deposited data

Results flagged for a closer look

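In 57 named loci, the CPM of the 4 AD samples and the 4 within-animal differences were screened for a sample far from the others, and 5 of 114 groups of 4 values (4.39%) held one. Chance alone marks about 1 in 20 such groups. All 5 were CPM values, and 4 of them belonged to animal 1. AD of animal 1 had 26.2 CPM at the unannotated locus on chromosome 6 (chr6:43210256-43215274), where the other 3 had 0 to 1.09 CPM, and 17.8 CPM of *METTL21C*, where they had 1.77 to 3.1 CPM. It also had 115 CPM at chr5:60404903-60427609, against 73.9 to 80.7 CPM, and 0 CPM of *EYA1*, against 1.74 to 1.82 CPM. AD of animal 4 had 2.09 CPM of *HOXC10*, where the other 3 had 3.28 to 3.41 CPM.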

How the results depend on the processing

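AD and the mean of the other 8 muscles differed at 7 loci (DEG) and at 38 loci at an FDR of 0.05. The likelihood ratio test gave 29 and 125, no filter 116 and 337 (28849 loci tested), and a reference without ST and SS 2 and 6. With 2 groups, in which the differences among the other muscles enter the residual, 0 and 0 loci passed. At least 10 counts in every sample left 1 DEG among 5151 loci, and *SIM2* was then not tested. DESeq2 gave 10 DEG (0 higher, 10 lower, 1 shared) and 77 loci at an FDR of 0.05. Leaving out 1 animal or 1 AD sample gave 2 to 6 DEG and 5 to 44 loci at an FDR of 0.05.

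Without the replicate block, 3 and 3 loci passed, and the DEG of AD were 6 against SM, 93 against ST, 0 against GB, 10 against RF, 33 against SS and 1 against PM. The pairwise counts by the likelihood ratio test were 143 for SM, 76 for GB, 1 for GM, 68 for RF, 156 for SS, 11 for LL and 14 for PM. DESeq2 gave 99 for SM, 44 for GB and 10 for PM. Without a filter they were 290 for SM, 331 for ST, 235 for GB, 78 for GM, 177 for RF, 250 for SS, 64 for LL and 68 for PM. With at least 10 counts in every sample they were 78 for ST, 10 for RF, 60 for SS, 0 for LL and 2 for PM. Leaving out 1 animal or AD sample gave 0 to 50 for SM, 127 to 170 for ST, 0 to 13 for GB, 11 to 28 for RF, 41 to 118 for SS, 2 to 7 for LL and 1 to 6 for PM. The causes were not tested.

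Members of the gene lists at an FDR of 0.05 numbered 5 by the likelihood ratio test, 2 by DESeq2, 6 without a filter, 0 with at least 10 counts and 0 with 2 groups. On total counts, AD led in every animal at 5 loci and was lowest at 4.

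Of 30 named loci at an FDR of 0.05, none changed sign. All 30 kept an FDR of 0.05 by the likelihood ratio test, RLE factors and library sizes without the 4 most counted unannotated loci. It was kept by 29 without a filter, 5 without ST and SS in the reference, and 6 to 16 without 1 animal. Other named loci that did not pass, such as *TNNT1*, *TNNC1*, *TNNI1*, *METTL21C* and *EYA1*, changed sign under at least 1 alternative. DESeq2 gave 11 of the 57 named loci no adjusted p. At this depth, loci under about 1 CPM in AD rest on few counts.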
